A study of Homo sapiens with 24 samples.

Results

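The comparison is between 2 libraries of untreated HepG2 cells carrying a hairpin against SETD2 (shSETD2) and 2 libraries of untreated HepG2 cells carrying a non-specific control hairpin (shCtrl), 4 of the 24 libraries of the series. They were chosen by their labels: hairpin, and the 0 h time point before actinomycin D, the inhibitor of transcription that the other time points received. HepG2 is an established human liver cancer line. Per the labels, hairpins were delivered by lentivirus made in HEK293T cells and each line was selected with puromycin at 1 ug/mL, so both groups share the infection and the selection. The labels name 1 line per hairpin and 1 hairpin label against SETD2, so an effect of losing SETD2, an effect of the hairpin itself and a difference between the selected lines cannot be told apart. Another line, with a hairpin against METTL14 (shMETTL14, 2 libraries at 0 h) and the 12 shSETD2 and shCtrl libraries taken 1, 3 and 6 h after 5 ug/mL actinomycin D are used below where they bear on these differences. The question the comparison answers is which RNAs stood at another level in SETD2 knockdown cells before synthesis was blocked.

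SETD2 is the main enzyme that adds the last of the methyl groups to lysine 36 of histone H3. It travels with elongating RNA polymerase II, so this mark lies over the bodies of transcribed genes, where it is read by proteins that restrain transcription from within genes, guide DNA methylation and take part in DNA repair and splicing. METTL14, a subunit of the enzyme complex that writes N6-methyladenosine on RNA, has been described as one reader of the mark. HepG2 cells keep part of the programme of the liver parenchymal cell, the hepatocyte, alongside features of fetal liver and of a tumour.

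Promoter sequences are shown for 2 features that were more frequent among genes higher by more than 1 log2 than among all genes, both described further on: a match to the binding motif of the HNF1 family of homeodomain factors, which a small minority of those genes had, and a scarcity of CpG dinucleotides. The sequences are from RefSeq (GRCh38.p14), on the strand of the gene, 5' to 3', and end at or before the transcription start. In the first set capitals mark the HNF1 motif GTTAATNAT, searched on both strands. The 4 genes encode the B subunit of coagulation factor XIII (F13B), glucose-6-phosphatase (G6PC), albumin (ALB) and alpha-fetoprotein (AFP, which rose by 0.86 log2 and so lies outside that set).
F13B, chr1:197067261-197067369, minus strand: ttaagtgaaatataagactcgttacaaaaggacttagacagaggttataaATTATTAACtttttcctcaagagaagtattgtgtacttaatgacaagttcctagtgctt
G6PC, chr17:42900549-42900631, plus strand: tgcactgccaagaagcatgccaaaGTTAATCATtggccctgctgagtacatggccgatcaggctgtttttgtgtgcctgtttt
ALB, chr4:73404176-73404284, plus strand: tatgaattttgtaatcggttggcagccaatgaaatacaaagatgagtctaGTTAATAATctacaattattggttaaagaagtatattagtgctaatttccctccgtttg
AFP, chr4:73436039-73436147, plus strand: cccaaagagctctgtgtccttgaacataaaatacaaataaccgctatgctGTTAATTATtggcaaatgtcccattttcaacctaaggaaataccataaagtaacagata

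In the second set capitals mark each CG, over the 120 bases before the start. IL21R, encoding the interleukin 21 receptor, and SLC22A7, encoding an organic anion transporter, were among the largest rises. MCAM, encoding a cell adhesion molecule, and TGFB1I1, encoding a focal adhesion protein, were among the largest falls.
IL21R, chr16:27427151-27427270, plus strand: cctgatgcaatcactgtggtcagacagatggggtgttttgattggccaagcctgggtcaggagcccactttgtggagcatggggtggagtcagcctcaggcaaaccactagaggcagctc
SLC22A7, chr6:43298140-43298259, plus strand: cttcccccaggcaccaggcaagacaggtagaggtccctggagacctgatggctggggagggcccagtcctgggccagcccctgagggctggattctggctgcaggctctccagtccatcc
MCAM, chr11:119317131-119317250, minus strand: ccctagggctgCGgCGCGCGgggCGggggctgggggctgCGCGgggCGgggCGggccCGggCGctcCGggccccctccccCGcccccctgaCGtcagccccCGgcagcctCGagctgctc
TGFB1I1, chr16:31472032-31472151, plus strand: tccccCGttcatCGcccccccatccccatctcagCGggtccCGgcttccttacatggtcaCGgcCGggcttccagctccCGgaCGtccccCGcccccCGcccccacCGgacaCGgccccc

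SETD2 itself stood at 131 and 129 CPM in the shCtrl libraries and 90.4 and 81.8 CPM in the shSETD2 libraries, so both knockdown libraries lay below both controls at 66.5% of the control mean (log2 fold change -0.59, SE 0.0646, adjusted p = 1.20e-07). METTL14, the gene targeted in the other knockdown line, was not lower in shSETD2: it stood at 29.3 and 30.04 CPM in the shCtrl libraries and 37.997 and 38.6 CPM in the shSETD2 libraries (log2 fold change 0.37, SE 0.0923, adjusted p = 0.00260), a call that did not hold when either control library was left out, in the limma fit of RPKM values or when scaling used library size only. Library totals were 22.1 and 25.3 M counts in shCtrl and 28.7 and 23.6 M in shSETD2, and 3 counts corresponded to between 0.102 and 0.124 CPM. Levels are CPM (a gene's counts scaled to a common library total). The totals were adjusted by TMM, a method that assumes most genes do not change. Mitochondrial transcripts took 6.995% and 6.89% of the counts in shCtrl and 8.899% and 8.67% in shSETD2, and the 10 most abundant genes 12.1% and 11.96% and 16.6% and 16.4%. A level states a gene's share of the RNA in its library. Fewer cells of a kind and less RNA per cell cannot be told apart.

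The 15 hepatocyte markers were all detected, and their summed level rose from 57019 and 56943 CPM in shCtrl to 107561 and 106591 CPM in shSETD2, with 11 of 15 higher and 2 lower. Among them the transcription factor gene FOXA2 did not pass the test (from 44.9 and 44.9 CPM to 47.996 and 49.5 CPM), though it passed with GC offsets and was lower with library size alone. Of 9 fibroblast markers, 2 exceeded 1 CPM in any of the 4 libraries and 4, among them THY1 and FAP, had 0 counts in all of them. COL1A1 was the fibroblast marker past the threshold, from 4.86 and 4.04 CPM to 9.15 and 8.94 CPM. Of 10 blood and immune markers, 4 including PTPRC had 0 counts in all 4 libraries, and the level of that list was nearly all LYZ, encoding lysozyme. Of 9 HEK293T markers 1 exceeded 1 CPM, and of 8 endothelial and stellate markers 1 did, RELN, which fell (from 2382 and 2355 CPM to 1369 and 1369 CPM). Their part in the results below was not tested.

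The difference between the lines was broad and mostly small. Of 14887 genes tested, 6041 passed the threshold of an adjusted p below 0.05 (40.6%), 3221 of them higher in shSETD2 (21.6%) and 2820 lower (18.9%). The median absolute change among them was 0.46 log2, and 3309 of the 6041 changed by less than 0.5 log2. Large changes leaned upward: 729 genes were higher by more than 1 log2 and 400 lower, and beyond 2 log2 the numbers were 256 and 86. Both libraries of one line lay above both of the other for 75.4% of all genes tested, so a lack of overlap is the common case here. The split between higher and lower depends on the scaling. Scaling by library size alone took the all-gene median from 0.02 to -0.14 log2 and gave 2010 higher and 5103 lower genes. Without shCtrl replicate 1 the counts were 1922 and 3229, and without shCtrl replicate 2 they were 1906 and 3120.

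**Figure D1:**
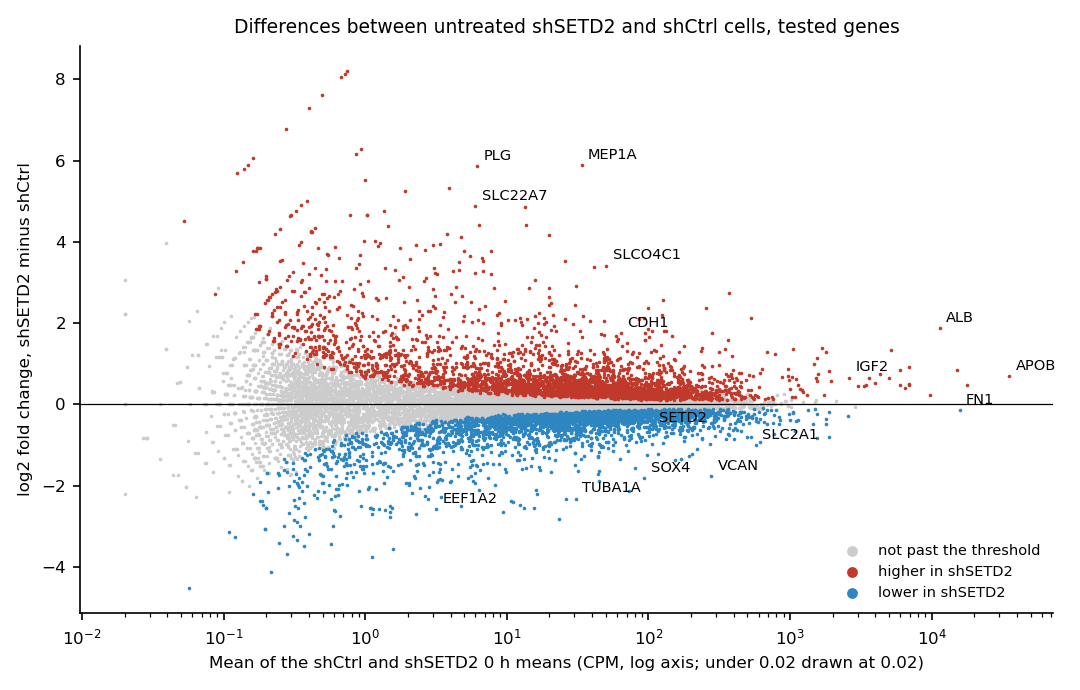
Log2 fold change of shSETD2 over shCtrl (vertical axis) against the mean level of each tested gene (horizontal axis, CPM, log scale), with genes past the adjusted p threshold in red (3221 higher) and blue (2820 lower). The largest rises, such as MEP1A and PLG, lie far above the largest falls in size, and the abundant liver genes ALB and APOB are higher at the right edge.

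Genes near silence in the control line made up many of the largest rises. In 15 genes both shCtrl libraries were under 1 CPM and both shSETD2 libraries at 5 CPM or more, while the reverse held for 1 gene, EEF1A2. SLC22A7 stood at 0.514 and 0.276 CPM in the shCtrl libraries and 11.4 and 11.8 CPM in the shSETD2 libraries (log2 fold change 4.88, SE 0.247, adjusted p = 2.33e-13). GSTA1, encoding an alpha class glutathione transferase that is abundant in adult liver, stood at 0.672 and 0.483 CPM in the shCtrl libraries and 12.2 and 12.2 CPM in the shSETD2 libraries (log2 fold change 4.40, SE 0.144, adjusted p = 1.47e-16). Both pairs are separated by more than an order of magnitude.

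F13B went from 1.26 and 1.17 CPM to 26.9 and 25.5 CPM (log2 fold change 4.43, SE 0.165, adjusted p = 1.22e-15), and HAL, encoding histidine ammonia-lyase, the first step of histidine breakdown, went from 1.11 and 1.0002 CPM to 15.1 and 13.6 CPM (log2 fold change 3.77, SE 0.158, adjusted p = 8.15e-15). SLCO4C1, encoding an organic anion transporter, had a clear level in shCtrl and was still among the 20 largest rises. It went from 8.26 and 9.04 CPM to 89.99 and 94.7 CPM (log2 fold change 3.41, SE 0.117, adjusted p = 2.91e-16). VNN1, encoding the pantetheinase vanin 1, rose from 1.34 and 0.828 CPM to 12.5 and 12.4 CPM (log2 fold change 3.54). Genes with other roles stood in the same range. IL21R rose from 0.395 and 0.345 CPM to 4.95 and 6.39 CPM, TNFSF10, encoding the death ligand TRAIL, from 0.909 and 0.724 CPM to 10.8 and 9.56 CPM, and AGR2, encoding an endoplasmic reticulum protein of secretory epithelia, from 2.69 and 1.59 CPM to 39.2 and 36.4 CPM. The acyl-CoA synthetase genes ACSM2A and ACSM2B both rose, from 0.277 and 0.517 CPM to 5.49 and 7.25 CPM and from 1.15 and 0.897 CPM to 12.1 and 12.6 CPM, but they are near-identical neighbours whose reads may be split between them. BHMT (4.19) overlaps DMGDH, so its counts are uncertain.

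The 20 largest falls held genes of mixed roles. EEF1A2, encoding the translation elongation factor isoform of neurons and muscle, went from 5.57 and 5.31 CPM to 0.915 and 0.907 CPM (log2 fold change -2.57, SE 0.185, adjusted p = 1.20e-10). APLP1, a relative of the amyloid precursor protein gene, went from 8.54 and 7.62 CPM to 1.56 and 1.28 CPM (log2 fold change -2.49, SE 0.166, adjusted p = 3.11e-11). Each was several-fold lower in both knockdown libraries than in either control. NDRG4 (-2.40) and CACNA1H, encoding a T-type calcium channel (-2.37), fell by similar amounts, as did SEMA3A, a secreted guidance cue (-1.91).

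The adhesion molecule gene MCAM went from 119 and 119.98 CPM to 27.3 and 27.4 CPM (log2 fold change -2.13, SE 0.0695, adjusted p = 1.47e-16), and MMP2, encoding a gelatinase that degrades basement membrane collagen, went from 27.4 and 26.04 CPM to 5.69 and 5.85 CPM (log2 fold change -2.21, SE 0.121, adjusted p = 9.19e-13). TGFB1I1 fell by 1.92 on the log2 scale, from 6.27 to 1.67 CPM. IL8, a neutrophil-attracting chemokine gene, went from 9.802 and 8.97 CPM to 2.54 and 2.35 CPM (log2 fold change -1.93), and PLA2G2A, encoding a secreted phospholipase, from 5.73 and 5.72 CPM to 1.32 and 0.989 CPM (-2.29). CREB5, encoding a CREB-family transcription factor, went from 13.5 and 12.8 CPM to 3.46 and 3.13 CPM (-1.99). CLDN6 (-2.32), a claudin gene of fetal epithelia, overlaps TNFRSF12A, and TUBA1A (-2.32) overlaps TUBA1C, so these counts are uncertain.

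**Figure D2:**
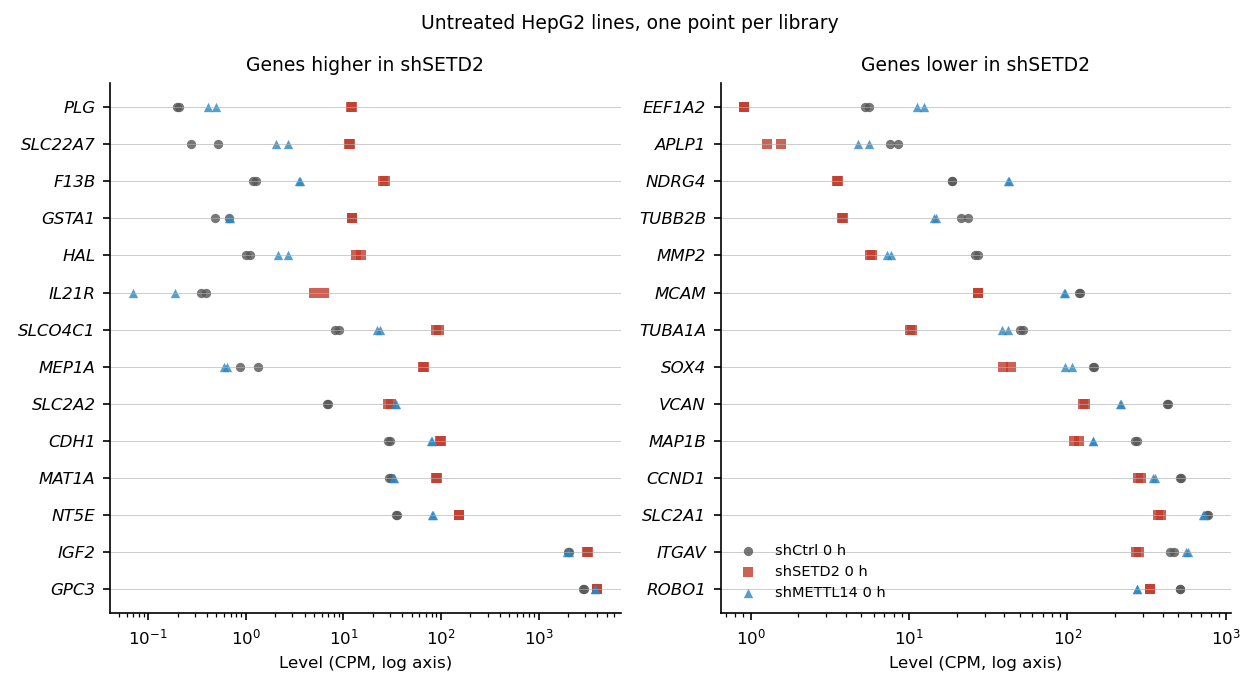
Levels of 28 genes (CPM, log axis) in each untreated library, with grey circles for shCtrl, red squares for shSETD2 and blue triangles for shMETTL14. The shSETD2 squares lie to the right of the shCtrl circles for all genes of the left panel and to the left for all genes of the right panel, while the shMETTL14 triangles fall near the controls for some genes (MAT1A, SLC2A1) and near shSETD2 for others (CDH1, SLC2A2, MMP2).

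Measured in CPM and not in fold, the largest rises were mostly of plasma protein and mitochondrial transcripts. The 15 genes with the largest gain in CPM took 12.8% and 12.6% of all counts in shCtrl and 18.9% and 18.7% in shSETD2. They were picked by that gain, so a rise in their share was built in. 8 of the 15 were mitochondrially encoded, and the other 7 were APOB, ALB, AFP, TF, SERPINA1, A2M and PEG10. APOB, the structural protein of very low density lipoprotein, went from 27376 and 26718 CPM to 43854 and 43337 CPM (log2 fold change 0.69). A2M, the plasma protease inhibitor alpha-2-macroglobulin, went from 3246 and 3246 CPM to 5424 and 5428 CPM (0.74), and PEG10, a retrotransposon-derived imprinted gene of placenta and liver tumours, from 2843 and 2809 CPM to 4429.9 and 4369 CPM (0.64).

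The 15 genes with the largest loss in CPM took 4.22% and 4.24% of counts in shCtrl and 2.96% and 2.96% in shSETD2. They were picked by that loss, so a fall in their share was built in. VCAN, encoding the large matrix proteoglycan versican, had the largest fold among them, from 431 and 425 CPM to 129 and 124 CPM (log2 fold change -1.76, SE 0.0633, adjusted p = 6.65e-16). SLC2A1, encoding the glucose transporter GLUT1, went from 768 and 762 CPM to 374 and 388 CPM (log2 fold change -1.004, SE 0.0516, adjusted p = 3.13e-13). The actin crosslinker gene FLNA went from 961 and 956 CPM to 571 and 578 CPM (log2 fold change -0.74) and ACTG1, encoding cytoplasmic gamma-actin, from 2787 and 2810.2 CPM to 2298 and 2327 CPM (-0.28). THBS1, the matrix glycoprotein thrombospondin 1, went from 808 and 796 CPM to 425 and 419 CPM (-0.93), and HSP90AB1, a cytosolic chaperone gene, from 2072 and 2109.7 CPM to 1479 and 1505 CPM (-0.49).

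Beyond these genes, 53 lists of pathways and families were described by how many tested members passed the threshold, against 21.6% higher and 18.9% lower over all genes and an all-gene median of 0.02 log2. In 23 of the 58 lists, markers included, the median lay above that of all genes tested. The split within a list depends on the scaling, so each count is followed by the same count with library size alone, where 2010 of all genes were higher and 5103 lower. Counts with GC offsets (3154 and 4139 over all genes) are added where they move the share of higher genes among those called by more than 10 percentage points.

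**Figure D3:**
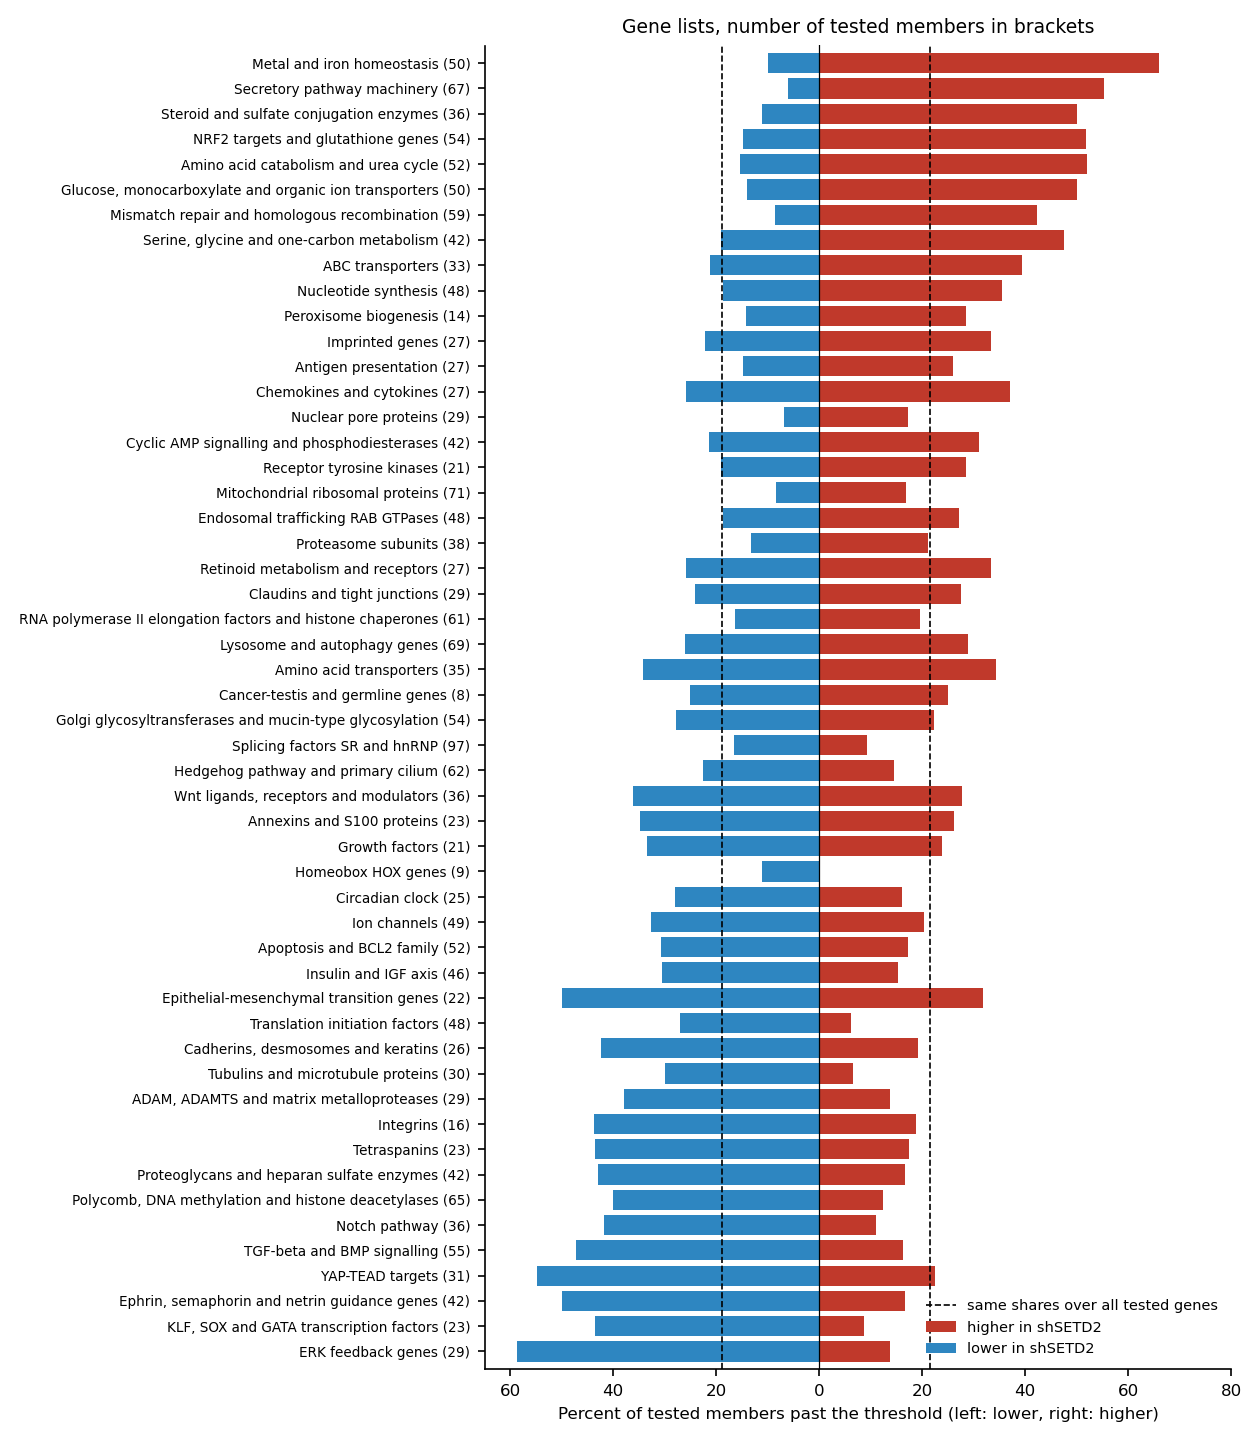
Percent of tested members higher (red, right) and lower (blue, left) in shSETD2 for gene lists, ordered by the difference between the shares, with dashed lines at the shares over all tested genes (21.6% higher, 18.9% lower). Metal, secretory, transporter and amino acid catabolism lists lie at the top, and ERK feedback, SOX and KLF factors, guidance and YAP-TEAD lists at the bottom.

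Several lists of liver metabolism and export had more higher than lower members. Of 50 tested metal and iron homeostasis genes 33 rose and 5 fell (median 0.46 log2; library size alone 30 higher and 10 lower, GC offsets 34 and 12). MT1E, encoding a zinc-binding metallothionein, went from 14.03 and 13.9 CPM to 40.03 and 39.6 CPM (log2 fold change 1.51, SE 0.0848, adjusted p = 1.51e-12). SLC40A1, the iron exporter ferroportin, went from 62.8 and 61.3 CPM to 129 and 121 CPM, and SLC31A1, the main copper importer, from 164 and 165 CPM to 282 and 279.7 CPM. SLC30A10, encoding an exporter of manganese, went from 9.802 and 8.55 CPM to 26.4 and 26.7 CPM. TFRC, the transferrin receptor gene, did not pass the test (from 740.2 and 737 CPM to 718 and 725 CPM). MT1E belongs to a family of close copies, so reads may be split among them.

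Glucose, monocarboxylate and organic ion transporters rose in 25 of 50 tested members and fell in 7, with a median of 0.37 log2 (library size alone 21 higher and 10 lower). The glucose transporters moved in opposite directions. SLC2A2, encoding GLUT2, the low-affinity transporter of hepatocytes, went from 6.76 and 6.93 CPM to 28.8 and 30.9 CPM (log2 fold change 2.12, SE 0.0885, adjusted p = 8.03e-15). SLC2A3, encoding the high-affinity transporter GLUT3, went from 229.7 and 223 CPM to 129 and 131 CPM (log2 fold change -0.80, SE 0.0422, adjusted p = 5.11e-13), the same direction as SLC2A1. Among ABC transporters 13 of 33 rose and 7 fell (library size alone 10 higher and 10 lower), so no lean was left under that scaling. ABCB1, the multidrug efflux pump, went from 73.4 and 74.98 CPM to 153 and 156 CPM (1.06 log2), ABCA1, which loads cholesterol onto apolipoproteins, from 210.4 and 206 CPM to 329.7 and 329 CPM (0.66), and ABCC1, a glutathione conjugate exporter, from 171 and 169 CPM to 101 and 98.6 CPM (-0.77).

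Secretory pathway machinery rose in 37 of 67 members and fell in 4 (median 0.24 log2; library size alone 27 higher and 14 lower, GC offsets 38 and 12). The members that rose were parts of both directions of transport between endoplasmic reticulum and Golgi. SEC23A, a subunit of the COPII coat that carries cargo out of the endoplasmic reticulum, went from 745 and 733 CPM to 1196 and 1197 CPM (log2 fold change 0.70, SE 0.0531, adjusted p = 3.31e-10). SEC24D, its cargo-binding partner, went from 122 and 124 CPM to 192 and 198 CPM. KDELR3 and KDELR2, receptors that return escaped resident proteins, rose by 1.09 and 0.70 log2, though KDELR3 overlaps DDX17. COPB2, part of the COPI coat of the return route, rose by 0.53 log2, and it overlaps MRPS22.

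Amino acid catabolism and the urea cycle rose in 27 of 52 members and fell in 8 (median 0.24 log2; library size alone 22 higher and 14 lower). GLUD1, the mitochondrial glutamate dehydrogenase, went from 290.3 and 279 CPM to 506 and 517 CPM (log2 fold change 0.84, SE 0.0391, adjusted p = 5.27e-14), and MUT, encoding methylmalonyl-CoA mutase, from 33.1 and 32.1 CPM to 61.5 and 62.9 CPM. ARG2, the mitochondrial arginase, went the other way, from 51.7 and 51.7 CPM to 25.7 and 27.3 CPM, with an overlap to VTI1B. Serine, glycine and one-carbon metabolism rose in 20 of 42 and fell in 8 (library size alone 14 higher and 12 lower, GC offsets 19 and 12). MAT1A, the methionine adenosyltransferase of adult liver, went from 30.99 and 29.5 CPM to 90.7 and 88.7 CPM (log2 fold change 1.57, SE 0.0642, adjusted p = 5.52e-15), and BHMT2, a methyltransferase that remakes methionine, rose by 1.28 log2, with an overlap to DMGDH.

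Steroid and sulfate conjugation enzymes rose in 18 of 36 members and fell in 4 (median 0.37 log2; library size alone 17 higher and 7 lower). AKR1D1, the steroid 5-beta-reductase of bile acid synthesis, went from 13.8 and 15.2 CPM to 50.4 and 51.97 CPM (log2 fold change 1.82, SE 0.0853, adjusted p = 6.46e-14). HSD17B2, which inactivates oestradiol and testosterone, went from 6.32 and 6.93 CPM to 27.5 and 25.9 CPM, and the sulfotransferase SULT2A1 from 91.9 and 89.8 CPM to 179 and 188 CPM. Of 54 NRF2 target and glutathione genes 28 rose and 8 fell (library size alone 15 higher and 16 lower), a lean that was not found with library size alone. AKR1B10, an aldo-keto reductase, went from 18.3 and 19.5 CPM to 78.7 and 77.2 CPM, GPX3, the secreted glutathione peroxidase, from 47.5 and 42.01 CPM to 112 and 107 CPM, and CAT, catalase, from 48.6 and 48.01 CPM to 96.97 and 93.96 CPM. AKR1C2 fell, from 103 and 109.6 CPM to 63.4 and 63.9 CPM, but it has close copies.

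Several lists of adhesion and cell shape genes had more lower than higher members, but not claudins and tight junctions, where 8 of 29 rose and 7 fell (library size alone 6 higher and 13 lower). Of 42 tested ephrin, semaphorin and netrin guidance genes 21 fell and 7 rose (median -0.38 log2; library size alone 7 higher and 24 lower). ROBO1, a receptor for the repulsive cue Slit, went from 516 and 511 CPM to 333 and 332 CPM (log2 fold change -0.63, SE 0.0379, adjusted p = 5.68e-12), NRP1, a co-receptor for semaphorins and VEGF, from 113 and 109.6 CPM to 63.6 and 62.1 CPM (-0.83 log2), and SEMA6A, a membrane semaphorin gene, from 63.8 and 60.2 CPM to 35.1 and 38.2 CPM (-0.76). Of 16 integrin genes 7 fell and 3 rose (library size alone 3 higher and 8 lower). ITGAV, which pairs with several beta chains to bind RGD-containing matrix proteins, went from 470.4 and 446 CPM to 283 and 269 CPM (log2 fold change -0.73, SE 0.0636, adjusted p = 2.92e-09), and ITGA2, a collagen receptor chain, from 226 and 222 CPM to 157 and 155 CPM (-0.52). ITGA1, another collagen receptor chain, went the other way, from 91.6 and 86.9 CPM to 134 and 124 CPM (0.53), and it overlaps PELO.

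Cadherins, desmosomal proteins and keratins fell in 11 of 26 members and rose in 5 (library size alone 5 higher and 17 lower). CDH1, the epithelial cadherin, went from 29.96 and 28.9 CPM to 101 and 96.9 CPM (log2 fold change 1.75, SE 0.0543, adjusted p = 5.98e-17), against the direction of most of that list. KRT19, a keratin of bile duct cells and hepatic progenitors, went from 300.2 and 304 CPM to 138 and 144 CPM (log2 fold change -1.10, SE 0.0838, adjusted p = 7.97e-10), KRT23 from 91.1 and 93.6 CPM to 45.996 and 45.8 CPM (-1.01), and PPL, which links keratins to desmosomes, from 46.2 and 49.6 CPM to 19.02 and 18.9 CPM (-1.34). Among 22 genes of the epithelial-mesenchymal transition list 11 fell and 7 rose (library size alone 5 higher and 12 lower), and the members did not move as one group. SPARC, a matrix glycoprotein, went from 109 and 106 CPM to 56.5 and 56.9 CPM (-0.93), while LOX, which crosslinks collagen, went from 5.65 and 5.45 CPM to 33.7 and 35.2 CPM (2.63), with an overlap to SRFBP1. TAGLN (-1.04), an actin-binding protein gene of smooth muscle, overlaps PCSK7.

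Of 42 proteoglycan and heparan sulfate genes 18 fell and 7 rose (library size alone 3 higher and 24 lower). SDC3, a membrane proteoglycan gene, went from 13.7 and 16.04 CPM to 4.58 and 4.82 CPM (-1.67), while GPC3, the cell-surface proteoglycan used as a marker of hepatocellular carcinoma, went from 2902 and 2867 CPM to 4015 and 3982 CPM (0.47). Tubulins and microtubule proteins fell in 9 of 30 and rose in 2 (library size alone 1 higher and 19 lower). MAP1B, which stabilises microtubules in growing neurites, went from 275 and 268 CPM to 109.8 and 117 CPM (log2 fold change -1.26, SE 0.0502, adjusted p = 3.79e-15). ARHGEF2, a microtubule-bound exchange factor, went from 67.6 and 67.3 CPM to 21.9 and 21.3 CPM (-1.64). Annexins and S100 proteins moved apart. ANXA5, ANXA6 and ANXA2 rose by 0.70, 1.06 and 1.000 log2, whereas S100A6 and S100P fell by 1.33 and 1.30.

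Of 29 genes that act as feedback or early targets of ERK 17 fell and 4 rose (median -0.34 log2; library size alone 3 higher and 22 lower). CCND1, cyclin D1, went from 521 and 510.2 CPM to 289.6 and 278 CPM (log2 fold change -0.86, SE 0.0386, adjusted p = 2.97e-14). DUSP16, a phosphatase of JNK and p38, went from 140.1 and 139 CPM to 71.2 and 71.9 CPM (-0.96 log2), IER3, an early response gene, from 113 and 118 CPM to 65.2 and 58.6 CPM (-0.90), and ERRFI1, an inhibitor of the EGF receptor, from 341 and 337 CPM to 238 and 233 CPM (-0.52). Among 21 receptor tyrosine kinases 6 rose and 4 fell (library size alone 5 higher and 9 lower), so the side with more members turned with the scaling. EGFR went from 35.3 and 35.5 CPM to 67.1 and 63.5 CPM (log2 fold change 0.89, SE 0.0689, adjusted p = 4.55e-10), with a named antisense gene over it, and FGFR4, the receptor for the bile acid hormone FGF19, from 234 and 229 CPM to 133 and 133 CPM (log2 fold change -0.80, SE 0.0877, adjusted p = 2.66e-07).

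Of 55 TGF-beta and BMP signalling genes 26 fell and 9 rose (median -0.22 log2; library size alone 4 higher and 31 lower). The ligand gene TGFB1 went from 63.4 and 62.3 CPM to 30.4 and 31.5 CPM, with overlaps to CCDC97 and HNRNPUL1, and GDF15, a stress-induced ligand, from 238 and 246 CPM to 97.2 and 94.04 CPM (log2 fold change -1.34, SE 0.0709, adjusted p = 5.36e-13). The activin-binding inhibitors moved apart: FSTL3 went from 31.7 and 30.8 CPM to 10.4 and 9.35 CPM (-1.66) and FST from 46.99 and 48.01 CPM to 81.7 and 88.3 CPM (0.84). Of 31 YAP-TEAD targets 17 fell and 7 rose (library size alone 4 higher and 21 lower). The 2 with the smallest p rose, NT5E, an ectonucleotidase, from 34.6 and 35.2 CPM to 152 and 153 CPM (log2 fold change 2.12, SE 0.0749, adjusted p = 4.56e-16), and CTGF, a matricellular protein gene, from 175 and 164 CPM to 324 and 320.2 CPM (0.93). TEAD2, one of the DNA-binding partners of YAP, went from 31.7 and 31.2 CPM to 11.4 and 12.98 CPM (-1.37).

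Of 36 Notch pathway genes 15 fell and 4 rose (library size alone 3 higher and 23 lower). The receptor gene NOTCH1 went from 7.19 and 6.83 CPM to 1.796 and 2.35 CPM (log2 fold change -1.77, SE 0.164, adjusted p = 8.41e-09), and NOTCH3 went from 2.85 and 2.97 CPM to 0.169 and 0.330 CPM, near the limit of detection in shSETD2. DLK1, a non-canonical ligand of fetal liver, went from 123 and 126 CPM to 217 and 219 CPM (0.81). Of 23 KLF, SOX and GATA factors 10 fell and 2 rose (library size alone 2 higher and 14 lower). SOX4, a factor of progenitor and tumour cells, went from 146 and 145 CPM to 39.3 and 43.9 CPM (log2 fold change -1.81, SE 0.0853, adjusted p = 7.00e-14), and KLF5, a zinc finger factor of proliferating epithelia, from 15.9 and 15.2 CPM to 8.68 and 7.87 CPM (-0.91). In the insulin and IGF axis 14 of 46 fell and 7 rose (library size alone 5 higher and 25 lower). IGF2, the fetal growth factor, went from 2059.8 and 2006 CPM to 3242 and 3173 CPM (log2 fold change 0.66, SE 0.0394, adjusted p = 4.66e-12), and IGF2R, the receptor that removes it, from 868 and 888 CPM to 643 and 628 CPM (log2 fold change -0.47, SE 0.0426, adjusted p = 6.58e-09). Both are also in the imprinted list, where 9 of 27 rose and 6 fell (library size alone 8 higher and 10 lower).

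Chemokines and cytokines rose in 10 of 27 members and fell in 7 (library size alone 7 higher and 8 lower). TNFSF4, encoding OX40 ligand, went from 4.66 and 5.17 CPM to 20.3 and 20.1 CPM (2.03), and IL1RN, the interleukin 1 receptor antagonist, from 6.76 and 6.55 CPM to 21.9 and 20.2 CPM (1.66). Lysosome and autophagy genes rose in 20 of 69 and fell in 18 (library size alone 9 higher and 32 lower), so most called members were lower under that scaling. LIPA, the lysosomal acid lipase that frees cholesterol from lipoproteins, went from 59.7 and 58.6 CPM to 205 and 205 CPM (log2 fold change 1.80, SE 0.0843, adjusted p = 1.08e-13), CTSH, a cathepsin gene, from 87.5 and 88.8 CPM to 152 and 146 CPM (0.75), and LAMP1, a lysosomal membrane protein gene, from 289 and 286 CPM to 199 and 200.4 CPM (-0.52). Golgi glycosyltransferases rose in 12 of 54 and fell in 15 (library size alone 10 higher and 23 lower). ST6GAL1, which adds terminal sialic acid to plasma glycoproteins, went from 288 and 282 CPM to 479 and 482 CPM (log2 fold change 0.76, SE 0.0364, adjusted p = 1.05e-13), and FUT8, which adds core fucose, from 62.8 and 61.5 CPM to 28.6 and 26.3 CPM (log2 fold change -1.18, SE 0.0823, adjusted p = 6.98e-11).

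Transcript elongation and splicing are the setting in which SETD2 is known to act, and whether their machinery was called more or less often than all genes turned with the scaling. Of 61 RNA polymerase II elongation factors and histone chaperones 12 rose and 10 fell (36.1% against the 40.6% of all genes), and 0 changed by more than 1 log2. The counts were 4 higher and 29 lower with library size alone and 10 and 28 with GC offsets, which are 54.1% and 62.3% of members against 47.8% and 48.99% of all genes. ELL2, a subunit of the super elongation complex, went from 126 and 122 CPM to 206 and 201 CPM (0.72). Of 97 splicing factors 9 rose and 16 fell (25.8%), and the counts were 2 higher and 57 lower with library size alone and 8 and 52 with GC offsets, which are 60.8% and 61.9% of members. SRSF12 was the one change beyond 1 log2, from 10.4 and 9.62 CPM to 3.36 and 3.92 CPM (-1.47), and QKI, an RNA-binding regulator of splicing, went from 157 and 154 CPM to 213 and 220.4 CPM (0.48). Mitochondrial ribosomal proteins rose in 12 of 71 and fell in 6 (library size alone 0 higher and 29 lower, GC offsets 11 and 17), and nuclear pore proteins rose in 5 of 29 and fell in 2 (library size alone 2 higher and 13 lower, GC offsets 3 and 11).

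Polycomb, DNA methylation and histone deacetylase genes fell in 26 of 65 and rose in 8, with a median of -0.12 log2 (library size alone 3 higher and 36 lower). The Polycomb subunit gene CBX2 went from 31.1 and 30.7 CPM to 18.2 and 17.1 CPM (-0.81). DNMT1, the maintenance DNA methyltransferase, did not pass the test (from 122 and 119 CPM to 134 and 128 CPM), and its direction reversed with library size alone. Mismatch repair and homologous recombination genes rose in 25 of 59 and fell in 5, by small amounts (median 0.21 log2, 0 beyond 1 log2; library size alone 10 higher and 9 lower, GC offsets 20 and 9). PCNA, the replication clamp, went from 217 and 227 CPM to 275 and 264 CPM (0.28), BRIP1, a helicase partner of BRCA1, from 26.4 and 25.7 CPM to 38.1 and 38.1 CPM (0.55), and TP53BP1, a factor of end joining, from 45.9 and 46.6 CPM to 31.5 and 33.6 CPM (-0.51).

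The direction of change varied with base composition. In the lowest 20% of genes by transcript GC content 27.5% were higher and 6.75% lower in shSETD2, and in the highest 20% 11.3% and 31.4%. The Spearman rank correlation between log2 fold change and transcript GC was -0.26 across 14515 genes, as a description, since genes share libraries and are not replicates. Chromosomes differed in the same sense: on chromosome 19, 8.89% of 1091 tested genes were higher and 25.5% lower, against 30.04% and 13.9% on chromosome 4 and 28.6% and 10.8% on chromosome 13. Gene span had little relation to the change (Spearman rank correlation 0.051). A technical dependence of the libraries on GC was not tested, but a fit with GC offsets per library called 3154 genes higher and 4139 lower. Changes over 1 log2 were more frequent among low-level genes, with 16.7% of the lowest 20% by mean CPM past the threshold and over 1 log2, against 2.35% of the highest 20%.

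**Figure D4:**
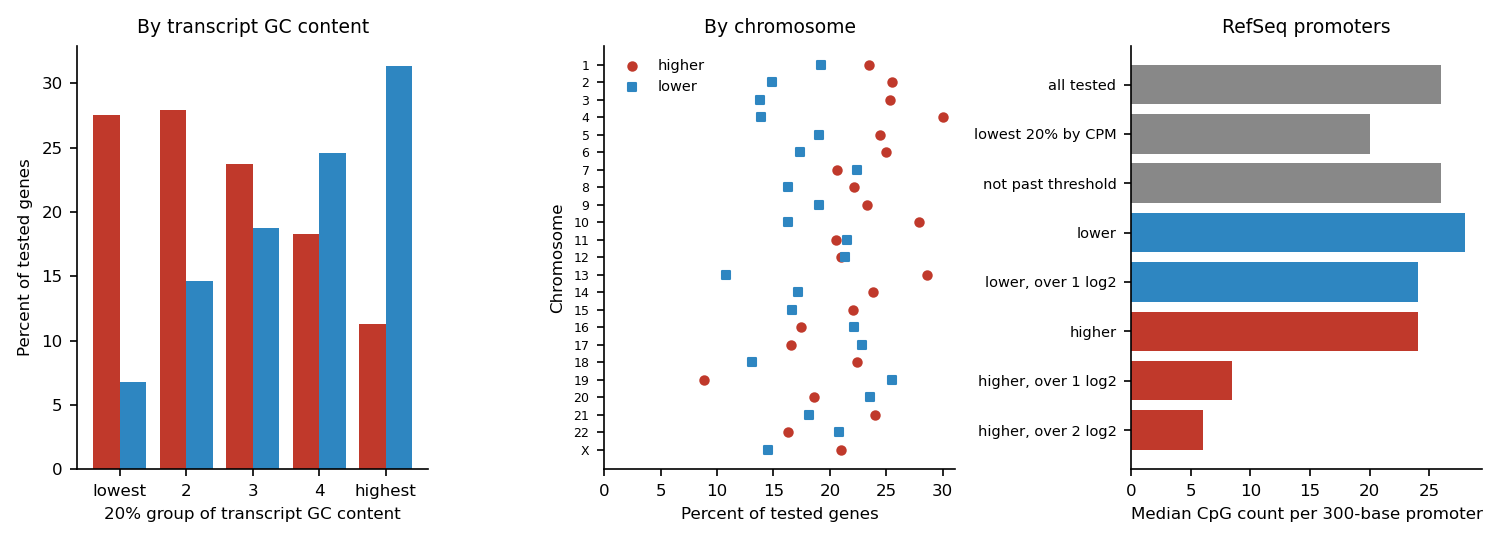
Percent of tested genes higher (red) and lower (blue) in shSETD2 by transcript GC content, in groups of 20% of the genes (left), and by chromosome (middle), and the median number of CpG dinucleotides in the 300-base RefSeq promoter window by gene set (right). Higher calls decline and lower calls grow with GC content, chromosome 19 has the fewest higher calls, and promoters of genes higher by more than 1 log2 have a median of 8.5 CpG against 26 for all tested genes.

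A RefSeq window of 300 bases, 250 before and 50 after the start, was matched to 11023 of the 14887 tested genes (74.0%). Its median CpG count was 26 over all of them, 28 in genes that were lower, 24 in genes that were higher, 8.5 in the 494 genes higher by more than 1 log2 and 6 in the 169 higher by more than 2. Genes lower by more than 1 log2 had a median of 24, and the lowest 20% of genes by level a median of 20. IL21R and SLC22A7 hold 2 and 1 CpG in the window, while MCAM and TGFB1I1 hold 29 and 30.

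The HNF1 motif was found in 0.481% of all promoters and in 3.85% of those higher by more than 1 log2 (19 of 494). Of the 277 promoters of genes lower by more than 1 log2, 0 had it, and 277 are too few to tell 0 from 0.481%. For the HNF4 motif, CAAAGTCCA or AGTCCAAAG, the shares were 0.608%, 2.63% and 0.722%, and for the GATA motif AGATAA 5.47%, 12.96% and 6.86%. In all, 14 motifs were searched on both strands of the 300-base window, and shares differed for others too. The ATF4 motif TGATGNAAT was in 0.508% of all promoters, 1.62% of those higher and 2.17% of those lower by more than 1 log2. For the AP-1 motif TGANTCA the shares were 4.66%, 7.89% and 6.14%, and for the CRE motif TGACGTCA 3.19%, 1.01% and 2.89%. In the lowest 20% by level the HNF1, HNF4 and GATA shares were 0.726%, 0.952% and 8.12%. AT-rich motifs such as HNF1 and GATA are found more easily in promoters of low GC content, and the median promoter GC was 65% over all genes against 57% in those higher by more than 1 log2. A match describes letters only, and no binding was measured.

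The shSETD2 libraries were also tested directly against the other knockdown line, shMETTL14, at 0 h. There 7767 genes passed the threshold (52.2%), 4342 higher in shSETD2 (29.2%) and 3425 lower (23%). This comparison shares its 2 shSETD2 libraries with the comparison against shCtrl, so the values are given side by side and no overlap of the calls is reported.

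MAT1A stood at 33.1 and 32.2 CPM in shMETTL14, below both shSETD2 libraries (shSETD2 minus shMETTL14 1.46 log2, adjusted p = 1.44e-14). SLC2A1 stood at 728 and 714 CPM, above both shSETD2 libraries (shSETD2 minus shMETTL14 -0.92 log2, adjusted p = 1.33e-12), and MCAM at 95.5 and 96.3 CPM (shSETD2 minus shMETTL14 -1.81 log2, adjusted p = 1.54e-15). For EEF1A2 the shMETTL14 libraries lay above the controls as well, at 12.5 and 11.3 CPM (shSETD2 minus shMETTL14 -3.70 log2, adjusted p = 1.44e-14). For other genes the knockdown lines lay nearer to each other than to the control, or in the other order. TNFSF10 stood at 10.4 and 10.8 CPM in shMETTL14 (shSETD2 minus shMETTL14 -0.05 log2, adjusted p = 0.773), SLC2A2 at 33.6 and 34.5 CPM (shSETD2 minus shMETTL14 -0.19 log2, adjusted p = 0.0323) and CDH1 at 81.7 and 79.9 CPM (shSETD2 minus shMETTL14 0.29 log2, adjusted p = 4.38e-05). ROBO1 was lower still in shMETTL14, at 274 and 276 CPM (shSETD2 minus shMETTL14 0.27 log2, adjusted p = 2.40e-06). G6PC, whose promoter is shown above, stood at 7.71 and 8.43 CPM in shMETTL14 (shSETD2 minus shMETTL14 -0.09 log2, adjusted p = 0.571). A2M stood at 5361 and 5223 CPM there (shSETD2 minus shMETTL14 0.04 log2, adjusted p = 0.477). These genes are a subset, and other genes named above were not set beside shMETTL14 in the text.

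The differences were measured again in other libraries of the same lines, at 1, 3 and 6 h of actinomycin D. Shares by direction alone are given for genes called at 0 h, without such a share over all genes tested. Of the 3221 genes higher at 0 h, 99.3% were higher at 1 h, 94.8% at 3 h and 89.04% at 6 h, and 80.7%, 67.96% and 59.9% passed the threshold again. Over all genes tested 41.4%, 43.1% and 40.9% were called at those times, 21.6%, 17.9% and 17% as higher. Of the 2820 genes lower at 0 h, 98.7%, 98.1% and 95% were lower, and 81.1%, 83.3% and 70.7% passed again, where 19.8%, 25.3% and 23.9% of all genes were called lower. The difference changed between 0 h and 1 h, by the interaction term, in 6 of the 6041 genes and in 7 of all 14887 tested. Whether it stayed the same in the others was not tested. HAL was 3.25, 3.41 and 3.56 log2 higher at 1, 3 and 6 h, and SLCO4C1 3.27, 3.03 and 3.01. For MCAM the log2 differences were -2.09, -2.17 and -2.13, and for VCAN -1.91, -2.15 and -2.07. Once transcription is blocked, levels also reflect how fast each RNA is lost.

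Half-lives in the authors' deposited table had similar medians in called and other genes. Of the genes higher at 0 h, 1518 had a value in both lines, with a median of 6.12 h in shCtrl and 4.08 h in shSETD2, and 10.01% had the longer value in shSETD2. For the 1557 lower genes the medians were 5.996 h and 4.36 h, with 12.1% longer, and for the 4608 genes that did not pass 6.001 h and 4.06 h, with 11.9% longer. These values have no replicates and rest in part on the same 0 h libraries, so no test was made.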

How the data were processed

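RNA-seq read counts per gene were used as the authors deposited them. Per the submitters' processing notes the tools included HTSeq 0.6.1p1, TopHat and cutadapt, with reads placed on GRCh37. No source used here names the annotation or the strand setting of the counting, so overlapping genes are named as uncertain. The RPKM values the authors deposited beside the counts entered 1 alternative fit, as log2(RPKM + 0.1). Half-lives, in hours, are the authors' deposited values per gene and line. Per the labels, ERCC spike-in RNA was added, but the table holds 0 ERCC entries and spike-ins were not used for scaling.

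The table lists 34618 genes, 9318 of them without a count. All 24 libraries (12 groups of 2) entered 1 edgeR 4.0.16 model in R 4.3.3, with TMM scaling, filterByExpr, a mean per group, the robust quasi-likelihood F test, 12 residual degrees of freedom and Benjamini-Hochberg adjustment at 0.05. Each p in the text is from that two-sided test, adjusted over all 14887 genes tested, except where another fit is named. The biological coefficient of variation was 5.04%. The script was tested on simulated data.

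The 2 libraries of a group are biological replicates per the design text, which does not say whether they came from separate cultures. The p-values therefore measure no more than the spread between libraries of a group, which may be technical. That spread was estimated over all 12 groups, those given actinomycin D included. Chi-square per degree of freedom between the libraries of a pair was 1.34 for shSETD2 and 2.07 for shCtrl at 0 h, above sampling noise. Depth was 22.1 to 28.7 M counts in the 4 libraries at 0 h. Intervals and limits that rest on counts cover counting error only.

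The groups, the 58 gene lists and the rule for naming genes were chosen with earlier results of these data known. The rule takes SETD2 and METTL14, the 20 largest rises and falls by log2 among genes with a higher group mean of at least 5 CPM and no overlap between libraries, the 15 largest rises and falls in CPM under the same condition, and for each list up to 5 members past the threshold by smallest p and up to 3 others by highest CPM. The text gives a subset, and some genes are not reported here. Lists are described by counts and medians, with no set test. Coordinates of promoters are RefSeq's on GRCh38.p14, and promoters were matched by symbol. GC content came from GENCODE transcripts matched by gene ID (97.5% of tested genes). Alternatives were other scalings, filters, tools (DESeq2 1.42.0, limma 3.58.1), fewer libraries, a replicate block and GC offsets.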

Additional observations from a re-analysis of the deposited data

Results flagged for a closer look

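The difference between shSETD2 and shCtrl changed between 0 h and 1 h of actinomycin D in 6 of the 6041 genes called at 0 h. Over all 14887 genes tested the number was 7. Both counts are by an interaction term in the edgeR model at an adjusted p below 0.05. In 5 of the 6 genes the difference was larger at 1 h. RHOB, encoding a short-lived small GTPase, was -0.64 log2 apart at 0 h and -0.996 at 1 h (interaction adjusted p = 0.0266), and IER3 -0.90 and -1.55 (adjusted p = 0.0307). The other 4 fall outside the rule for naming genes and were named after their values were seen. SOX5, a transcription factor gene, stood 0.37 log2 higher at 0 h and 1.27 at 1 h, ZBTB39 0.22 and 0.98, and PIK3R3, which overlaps TSPAN1, 0.31 and 1.22. PIM1, encoding a kinase with a short-lived messenger RNA, was 0.50 log2 higher at 0 h and -0.25 at 1 h (adjusted p = 0.0128). The 0 h calls of SOX5, ZBTB39 and PIK3R3 were lost under other settings, among them limma on RPKM (moderated t test, adjusted p = 0.204, 0.635 and 0.468).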

How the results depend on the processing

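The counts of 3221 higher and 2820 lower genes were 2010 and 5103 with library size alone, 1846 and 4647 with limma on RPKM, 2047 and 3209 with the stricter filter (10093 genes tested), 3154 and 4139 with GC offsets, and 3263 and 4256 with GC offsets with the replicate block. Leaving out 1 library at a time gave 1906 to 2615 higher and 2077 to 3229 lower genes, the lowest numbers of higher genes without a shCtrl library. In such fits the lone library is assumed to vary like the other groups. The remaining fits, among them DESeq2 (2510 and 3203), stayed within 1.5 times. A fit of the 4 libraries alone called 4034 higher and 3978 lower, 53.8% of genes against 40.6% in the main fit. With the 6 libraries at 0 h the counts were 3838 and 4137 (53.6%). Against shMETTL14 the counts of 4342 and 3425 became 2330 and 5787 with library size alone and 2126 and 5384 with limma on RPKM. The number of lists above the all-gene median ran from 20 to 26. The cause of these differences was not tested. Of 149 genes whose values the text gives besides SETD2, 146 passed the threshold. METTL14 lost its call under 4 settings (log2 fold changes 0.21, 0.21, 0.26 and 0.30), and PIK3R3, SOX5 and ZBTB39 lost theirs under some, while FOXA2, DNMT1 and TFRC gained one. FOXA2 (-0.0378 and -0.0373) and DNMT1 (-0.0404 and -0.041) were reversed with library size alone and limma on RPKM. A replicate block called 3560 genes higher and 3139 lower, and 0 named genes lost or gained a call. The deviations of same-numbered libraries of shSETD2 and shCtrl at 0 h had a correlation of 0.0057, and over all pairs of groups -0.084 to 0.202, so the numbers were not taken as pairs. At 22.1 to 28.7 M counts, genes near 0.102 to 0.124 CPM (3 counts) rest on few reads.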

Other observations

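Translation initiation factors fell in 13 of 48 tested members and rose in 3, by less than 1 log2 throughout (library size alone 0 higher and 30 lower, GC offsets 3 and 32). EIF5 went from 364 and 362 CPM to 253 and 252 CPM (log2 fold change -0.52) and EIF4G3, a scaffold of the cap-binding complex, from 111 and 109 CPM to 76.1 and 73.3 CPM (-0.56). Amino acid transporters rose in 12 of 35 and fell in 12 (library size alone 11 higher and 17 lower). SLC1A2, a glutamate transporter gene, went from 38.2 and 34.1 CPM to 64.2 and 64.7 CPM (0.84), and SLC7A1, which imports arginine and lysine, from 283 and 273 CPM to 209 and 203 CPM (-0.43). Of 52 apoptosis genes 16 fell and 9 rose (library size alone 5 higher and 20 lower), and BBC3, encoding the p53 target PUMA, went from 18.5 and 19.7 CPM to 10.4 and 9.07 CPM (-0.97). Retinoid genes rose in 9 of 27 and fell in 7 (library size alone 7 higher and 7 lower). TTR and RBP4, which carry thyroid hormone and retinol in plasma, rose by 1.75 and 0.78 log2.

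Metalloproteases of the ADAM, ADAMTS and MMP families and their inhibitors fell in 11 of 29 tested members and rose in 4 (library size alone 3 higher and 16 lower). MMP14, the membrane protease that activates MMP2, went from 23.8 and 25.1 CPM to 11.1 and 11.8 CPM (-1.10), while the inhibitor genes TIMP2 and TIMP3 moved apart, from 92.9 and 91.6 CPM to 60.2 and 59.5 CPM and from 174 and 171 CPM to 224 and 223 CPM. Tetraspanins fell in 10 of 23 and rose in 4 (library size alone 4 higher and 12 lower). Wnt ligands, receptors and modulators rose in 10 of 36 and fell in 13 (library size alone 6 higher and 18 lower). The receptor gene FZD4 went from 156 and 163 CPM to 223 and 226 CPM (0.50), and the feedback inhibitor genes NKD1 from 547 and 530.3 CPM to 389.8 and 386 CPM (-0.47) and DKK1 from 79.6 and 78.6 CPM to 60.8 and 60.8 CPM (-0.38). Of 27 antigen presentation genes 7 rose and 4 fell (library size alone 5 higher and 7 lower), and MICB, a ligand of the killer cell receptor NKG2D, went from 15.97 and 13.2 CPM to 28.7 and 29.1 CPM (0.99). Of 9 HOX genes tested 1 passed (library size alone 0 higher and 4 lower), HOXA3, from 24.4 and 22.7 CPM to 15.02 and 14.2 CPM (-0.69), which overlaps HOXA5 and HOXA-AS2.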
